A study of Bos taurus with 6 samples.

Results

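The genes of the 40S ribosomal subunit and of translation initiation were followed in day 7 bovine blastocysts. Members were the probe sets annotated with exactly 1 gene symbol that was an RPS gene, RPSA, FAU, PABPC1 or a gene of the EIF1 to EIF6 families, with the RPS6K kinases left out. Such a symbol stood on 94 probe sets, which covered 66 genes of the 9155 named on the array: 25 for 40S ribosomal proteins and 41 for initiation factors, PABPC1 included. Where a gene had several probe sets, the one with the highest 6-array mean stands for it. The bovine RefSeq gene table (ARS-UCD2.0) lists 33 protein-coding genes under the 40S rule and 54 under the initiation factor rule, and those without a probe set of their own were not analysed here.

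The 3 superovulated arrays hold blastocysts that stayed until day 7 in the tract of Simmental heifers that had been synchronized, superovulated and inseminated. The 3 synchronized arrays hold blastocysts of such heifers too, but these embryos were flushed on day 2, at the 2-cell stage, moved by endoscope into recipients that were synchronized without superovulation, and collected on day 7. All embryos thus came from superovulated donors, 18 in all, of which 9 were flushed on day 2, and the groups differed in both the tract and the transfer. The labels do not say how many embryos an array holds, nor whether the 3 arrays of a group had different donors, so p-values cover only array-to-array spread, which may be technical. Signals are deposited GCRMA values on the log2 scale, where 1 unit is a doubling, and differences are superovulated minus synchronized. A difference passed when its adjusted p was below 0.05 in limma over all 24016 probe sets. Levels of different genes are not compared, since each probe set has its own affinity.

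The 40S subunit binds the mRNA and reads its codons. It is recruited by the initiation factors: eIF2 carries the initiator tRNA, the large eIF3 complex holds the subunit open for mRNA, the eIF4 factors bind the cap and unwind the leader, and eIF5 and eIF5B guide start site selection and joining of the 60S subunit. The bovine embryo begins with ribosomes and mRNA stored in the oocyte, and its own genome takes over the making of ribosomes within the cleavage stages before the blastocyst. Ribosomal protein genes are usually expressed together, the subunit holds its proteins in equal number, and their mRNAs carry a pyrimidine-rich start through which mTOR signalling controls their translation.

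Signal on the arrays as a whole differed within and between the groups. The number of probe sets above log2 4, taken here as the edge of background (a bright probe set has its 6-array mean above it), was 1457 to 1894 on the superovulated arrays and 973, 1850 and 1184 on synchronized arrays 1, 2 and 3. The 9 bacterial controls spiked in at hybridization averaged 12.30 to 12.35 on the superovulated arrays and 12.56 to 13.29 on the synchronized ones. The 3' GAPDH control set read 8.67 to 9.14 in the superovulated group and 7.20 to 8.35 in the synchronized group, while its 5' set stayed between 2.60 and 3.03 on all 6 arrays, and the part of these differences in the results was not tested. Of the embryo's own markers, KRT18 of the trophectoderm was read on every superovulated array (7.74 to 8.11) and passed as higher there (adjusted p = 0.0410 in limma), against 3.55 to 4.90 on the synchronized arrays. POU5F1, listed here for the inner cell mass, read 3.24 to 3.54 in the superovulated group and 2.40 to 2.73 in the synchronized group, below log2 4 in both. Whether its signal came from that lineage alone was not tested. SOX2 and KRT8 lay at background, and NANOG, CDX2, GATA3, GATA2, TFAP2C and IFNT were not analysed here. The summed signal of 6 oocyte markers ran from 19.53 to 24.47 on the superovulated arrays and from 17.74 to 28.98 on the synchronized ones, with superovulated array 3 and synchronized array 2 the highest of their groups. KPNA7, an importin of oocytes, read 5.94, 5.98 and 7.78 in the superovulated group and 4.04, 9.02 and 6.11 in the synchronized group. GDF9, BMP15 and ZP3 lay near background throughout. For 6 cumulus and granulosa markers the superovulated sums ran from 18.02 to 23.01 and the synchronized sums from 19.25 to 25.25, highest on the same arrays. Only 1 of the 6, TNFAIP6, had a mean above log2 4. It read 3.05, 2.99 and 7.38 in the superovulated group and 4.25, 8.47 and 5.96 in the synchronized group. FSHR, AMH and CYP19A1 lay near background, and HAS2 differed by 0.27, higher in the superovulated group. None of the 5 blood markers had a mean above log2 4 (summed signal 13.62 to 13.98 in the superovulated and 13.79 to 14.21 in the synchronized group), nor had the 2 measured oviduct markers (4.70 to 4.76 in the superovulated and 4.72 to 4.88 in the synchronized group). The part of these cells in the results below was not tested.

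Nearly all measured 40S ribosomal protein genes gave more signal in blastocysts from the superovulated tract. Of the 25 genes, 23 had a difference above 0 and 2 below it, and the median difference was 1.83, staying at 1.15 after a second quantile normalization and at 1.20 after centring on bright probe sets. The median over all probe sets was -0.02, and 26.9% of them, or 71.5% of the 1406 with a mean above log2 4, had a difference above 0. In 19 genes the difference exceeded 1 log2 unit, which 2.89% of all probe sets and 38.2% of those above log2 4 did. In 20 of the 25 every superovulated array lay above every synchronized array, which held for 5.42% of all probe sets and for 42.5% of those above log2 4. RPS13 and RPS21 passed the test, both higher, and 0 genes were lower. Of all probe sets 0.716% passed, 0.695% as higher and 0.0208% as lower, and of those above log2 4 7.82% passed as higher. At an unadjusted p below 0.05 in limma stood 20 of the 25 genes, 6.65% of all probe sets and 600 of the 1406 above log2 4. In whole embryos, fewer cells of a type and less RNA per cell cannot be told apart.

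RPS13, a protein of the platform side that lies where eIF3 binds, read 7.00, 7.10 and 6.85 on the superovulated arrays, against 4.10, 4.85 and 4.79 on the synchronized arrays. The lowest superovulated array was thus 2.00 above the highest synchronized one. The difference was 2.40 (95% interval 1.82 to 2.99, adjusted p = 0.0342 in limma), a 5.29-fold ratio. RPS21, a small protein beside RPSA on the back of the subunit, read 6.03, 5.99 and 6.03 in the superovulated group and 3.64, 4.28 and 3.91 in the synchronized group. Its superovulated arrays lay within 0.04 of each other, and the groups were 1.71 apart. It differed by 2.07 (1.64 to 2.50, adjusted p = 0.0268 in limma). Both calls were lost when single arrays were left out: RPS13 without superovulated array 1, 2 or 3 (adjusted p = 0.116, 0.141 and 0.107) or synchronized array 2 or 3 (0.0638 and 0.103), and RPS21 without superovulated array 1, 2 or 3 (0.0907, 0.108 and 0.0945) or synchronized array 3 (0.102). Both were also lost after a second quantile normalization (RPS13 0.161, RPS21 0.0512) and with an intensity trend (0.0831 and 0.0616), adjusted p in limma throughout.

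**Figure D1:**
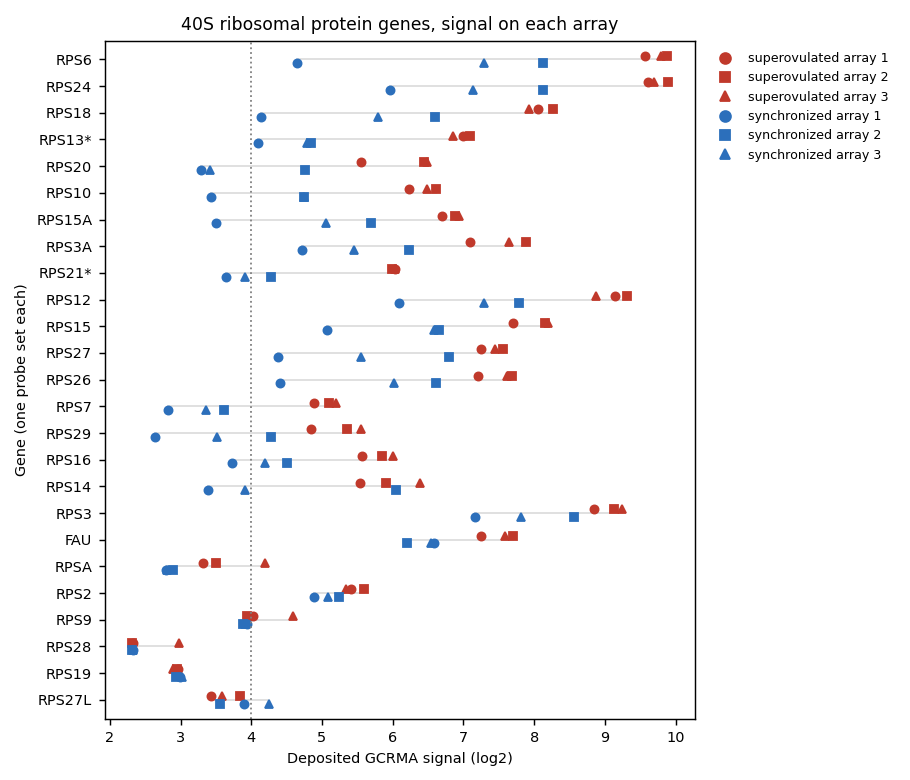
Signal of the 25 genes for 40S ribosomal proteins on each array (x axis, deposited log2 signal; 1 row per gene, ordered by the difference; red, superovulated; blue, synchronized; symbol shape, array number; dotted line, log2 4; asterisk, adjusted p below 0.05 in limma). From RPS6 to RPS3 in the upper rows the red points sit right of the blue ones except in RPS14, and synchronized array 1 is the leftmost point.

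The other members of the platform and the mRNA exit side had synchronized SDs from 0.05 in RPSA to 1.41 in RPS14. RPS7, in which mutations cause Diamond-Blackfan anaemia in humans, read 4.89, 5.10 and 5.20 in the superovulated group, against 2.82, 3.62 and 3.36 in the synchronized group (difference 1.80, adjusted p = 0.0608 in limma). RPS3A, a neighbour of the exit channel, read 7.10, 7.88 and 7.65 in superovulated and 4.72, 6.23 and 5.45 in synchronized blastocysts. RPSA, the laminin receptor homologue that binds late in subunit assembly, read 3.32, 3.50 and 4.20 in superovulated and 2.80, 2.89 and 2.81 in synchronized blastocysts, so its synchronized arrays were at background. None of these groups overlapped, yet none of the differences passed. RPS26, which touches the mRNA at the exit channel, differed by 1.83, and the zinc finger protein gene RPS27 by 1.84, also without overlap and without passing. RPS14, a platform protein next to the growing initiation complex, was the exception: the superovulated arrays read 5.54, 5.90 and 6.38, synchronized array 2 lay among them at 6.05, and synchronized arrays 1 and 3 read 3.39 and 3.91.

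In the head of the subunit 9 of 10 genes had a difference above 0, against 26.9% of all probe sets and 71.5% of those above log2 4. In 8 the superovulated arrays all lay higher, against 5.42% and 42.5%, and the median difference was 1.84. Of the 10 genes 8 had a mean above log2 4. Such an order held in 7 of 8 platform and exit side genes and in 5 of 6 body genes too. RPS18 read 8.06, 8.26 and 7.93 on the superovulated arrays, against 4.14, 6.60 and 5.79 on the synchronized ones. The lowest superovulated value lay 1.33 above the highest synchronized one, but the synchronized arrays spanned over 2 units and the difference of 2.57 did not pass (adjusted p = 0.366 in limma). RPS20 and RPS10, whose ubiquitin marks flag collided ribosomes in human cells, differed by 2.34 and 2.14. RPS20 read 5.55, 6.44 and 6.49 in the superovulated group and 3.29, 4.76 and 3.42 in the synchronized group. RPS10 read 6.23, 6.61 and 6.48 in superovulated and 3.43, 4.74 and 4.74 in synchronized blastocysts. In both genes synchronized array 1 was the lowest of all. RPS16, whose tail reaches toward the site of the initiator tRNA, read 5.57, 5.85 and 6.01 in superovulated and 3.72, 4.51 and 4.20 in synchronized blastocysts (difference 1.67, adjusted p = 0.0805 in limma). RPS12, of the beak, differed by 2.06, RPS15, needed for nuclear export of the pre-40S particle, by 1.91, and the zinc finger protein gene RPS29 by 1.77, with no overlap in any of them and adjusted p between 0.276 and 0.391 in limma. RPS3, which lines the mRNA entry channel, showed the smallest difference among the head genes with signal, at 1.22: it read 8.84, 9.13 and 9.24 in the superovulated group and 7.17, 8.56 and 7.81 in the synchronized group. The head genes RPS19 and RPS28, both mutated in some patients with Diamond-Blackfan anaemia, were at background on nearly every array (2.89 to 3.02 and 2.31 to 2.97). Their differences were -0.05 and 0.22, in the background range (RPS28 at -0.41 after centring, RPS19 at 0.013 with the mean of its probe sets).

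The body held both the largest and some of the smallest differences. RPS6, the ribosomal protein phosphorylated by S6 kinase below mTOR, read 9.57, 9.88 and 9.79 on the superovulated arrays, against 4.65, 8.13 and 7.29 on the synchronized arrays. The groups did not overlap, but synchronized array 1 lay far under the other synchronized arrays. The difference of 3.06 had an interval of 0.62 to 5.49 and did not pass (adjusted p = 0.544 in limma). RPS24 read 9.61, 9.90 and 9.70 in superovulated and 5.96, 8.12 and 7.13 in synchronized blastocysts, and RPS15A 6.69, 6.88 and 6.94 in superovulated and 3.50, 5.69 and 5.06 in synchronized blastocysts. Their differences were 2.67 and 2.09, again without overlap and without passing. FAU, which encodes the ribosomal protein RPS30 fused to a ubiquitin-like protein, read 7.25, 7.70 and 7.59 in superovulated and 6.59, 6.20 and 6.54 in synchronized blastocysts (difference 1.07, adjusted p = 0.0975 in limma), and synchronized array 1 was here the highest of its group. RPS2, at the mRNA entry side, differed by 0.38 (superovulated 5.41, 5.59 and 5.34, synchronized 4.89, 5.24 and 5.08). RPS9, which helps to keep decoding accurate, differed by 0.27 (superovulated 4.02, 3.94 and 4.59, synchronized 3.94, 3.88 and 3.91), with overlap. The direction of these last 3 genes depended on the scaling: after a second quantile normalization FAU stood at -0.048, RPS2 at -0.30 and RPS9 at -0.024. RPS27L, a paralogue of RPS27 that p53 induces in human cells, was the lowest of the 25 at -0.28 (0.06 against synchronized array 2 alone), with overlapping groups (superovulated 3.43, 3.84 and 3.59, synchronized 3.89, 3.56 and 4.25).

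Most 40S genes ranked the arrays in 1 shared order. Synchronized array 1 was the lowest of all 6 arrays in 20 of the 25, against 6.86% of all probe sets and 52.9% of those with a mean above log2 4. In 18 of the 25 the order was synchronized array 1, then 3, then 2, then all the superovulated arrays. That full order was seen in 1.59% of all probe sets and in 18.6% of those with a mean above log2 4. Over the 25 genes the superovulated arrays 1 to 3 had medians of 6.23, 6.61 and 6.49, against 3.94, 5.24 and 4.79 for synchronized arrays 1 to 3. The median SD was 0.21 in the superovulated group and 0.76 in the synchronized group, whose SD was the larger one in 21 of the 25. Among probe sets with a mean above log2 4 the median SD was 0.30 in the superovulated group and 0.59 in the synchronized group, whose SD was the larger one in 77.4%. With synchronized array 2, whose 1850 probe sets above log2 4 lie in the superovulated range, as the sole comparison, the median difference of the 25 genes was 1.30, with 23 above 0. Over probe sets with a mean above log2 4 that median was 0.19. RPS13 kept 2.13 of its difference against this array, RPS21 1.74, RPS10 1.70 and RPS6 and RPS24 1.62 each, whereas RPS14 stood at -0.11.

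**Figure D2:**
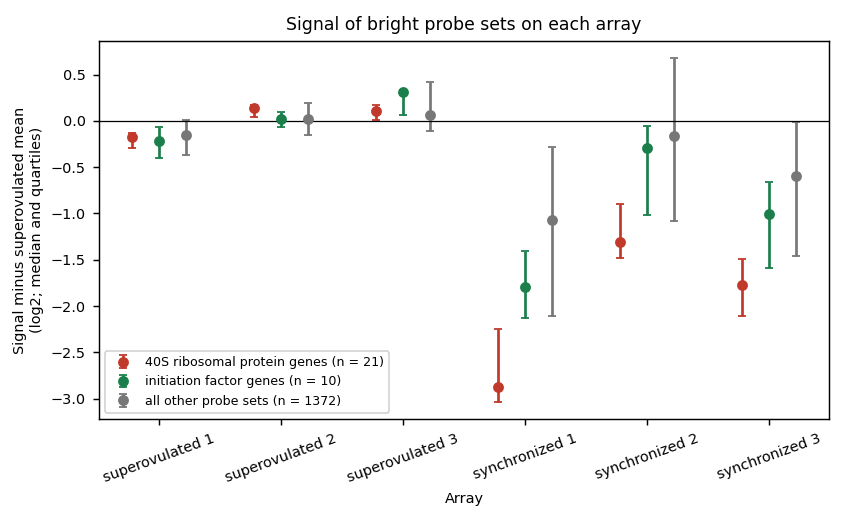
Signal of each array relative to the gene's own superovulated mean (y axis, log2; points, medians; bars, quartiles) for the 21 genes for 40S proteins, the 10 initiation factor genes and the 1372 other probe sets with a mean above log2 4. On synchronized arrays 1, 2 and 3 the 40S medians lie at -2.87, -1.31 and -1.78, the initiation factor medians at -1.79, -0.29 and -1.0 and the other probe sets at -1.07, -0.17 and -0.60. The quartile bars of the 40S genes and the other probe sets overlap on synchronized array 2 and on no other synchronized array. A synchronized mean at or under log2 4 was found in 5 of the 21, 4 of the 10 and 282 of the 1372. These entered through the superovulated arrays, so low synchronized values are partly set by the filter.

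The number of 40S genes that passed depended on which probe sets were tested or used for scaling. When only the 1406 probe sets above log2 4 on average were tested, 15 of the 21 genes for 40S proteins in that set and 4 of the 10 initiation factor genes passed as higher, where 29.4% of the set did. Of the 21 and the 10, 5 and 4 had a synchronized mean at or under log2 4 and entered the set through the superovulated arrays, so each count is a description only. Centring each array on these probe sets lowered every difference by the same amount and moved the median of all probe sets to -0.65. With it 15 of the 25 passed as higher and the median of the 25 was 1.20. Under that scaling 1.17% of all probe sets passed as higher and 1.52% as lower. Of the 1406 probe sets used for centring, 292 had a synchronized mean at or under log2 4. After it 265 of the 1406 passed as higher and 150 as lower. RPS2, RPS9 and RPS28 then turned to -0.25, -0.35 and -0.41.

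Several genes had probe sets that disagreed. RPS12 had 4 probe sets: the brightest differed by 2.06, a second one with signal (superovulated 5.49, 6.03 and 5.44, synchronized 5.14, 5.48 and 5.60) by 0.25, and the other 2 lay at background. The second probe set of RPS15A differed by -0.24 at background. All 3 probe sets of RPS3 had differences above 0, from 0.80 to 1.32. RPS7 differed by 0.15 and 0.04 on its other 2 probe sets, which gave little signal. Ribosomal proteins have many processed pseudogenes, so probes of a set may also read such copies, and which copies each probe set reads was not tested.

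The initiation factors were split between a few genes with clear signal and many at background. Of the 41 genes 31 had a difference above 0 and 10 below it, with a median of 0.17. Centring on bright probe sets, which lowers every difference by the same amount, moved this median to -0.46, with 11 genes above 0 and 30 below it. EIF5 was the only one that passed, where 0.695% of all probe sets and 7.82% of those with a mean above log2 4 passed as higher. In 11 genes the groups did not overlap and the superovulated group was higher, against 5.42% of all probe sets and 42.5% of those with a mean above log2 4. Of these 11, 6 were among the 10 genes with a mean above log2 4. In 2 others, EIF2B1 and EIF4E3, the superovulated values were all below the synchronized ones, with differences of -0.04 and -0.10 at background, and such an order held for 7.89% of all probe sets. Only 10 of the 41 had a mean above log2 4, and 14 genes read between 2.45 and 3.91 on all arrays with differences between -0.10 and 0.41: EIF1AD, EIF2AK1, EIF2AK2, EIF2AK3, EIF2B1, EIF2B2, EIF2B3, EIF2D, EIF3D, EIF3I, EIF4A3, EIF4E2, EIF4E3 and EIF4G3.

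EIF5, which makes eIF2 hydrolyse its GTP once the start codon is found, read 4.81, 4.74 and 4.80 on the superovulated arrays, against 3.26, 3.49 and 3.27 on the synchronized arrays. The superovulated arrays were almost equal and the synchronized ones were below log2 4. The difference was 1.44 (95% interval 1.26 to 1.63, adjusted p = 0.0109 in limma), a 2.72-fold ratio. The call was lost after a second quantile normalization (adjusted p = 0.0654 in limma), after centring on bright probe sets (0.109, difference 0.82) and without superovulated array 2 (0.0518), and held without any of the other arrays. Its second probe set differed by 0.05 (superovulated 3.54, 3.61 and 3.63, synchronized 3.55, 3.51 and 3.56), so the result rests on 1 of 2 probe sets. EIF6, which keeps the 60S subunit from joining too early, lay near background (superovulated 3.46, 3.07 and 3.06, synchronized 3.26, 3.16 and 2.69).

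**Figure D3:**
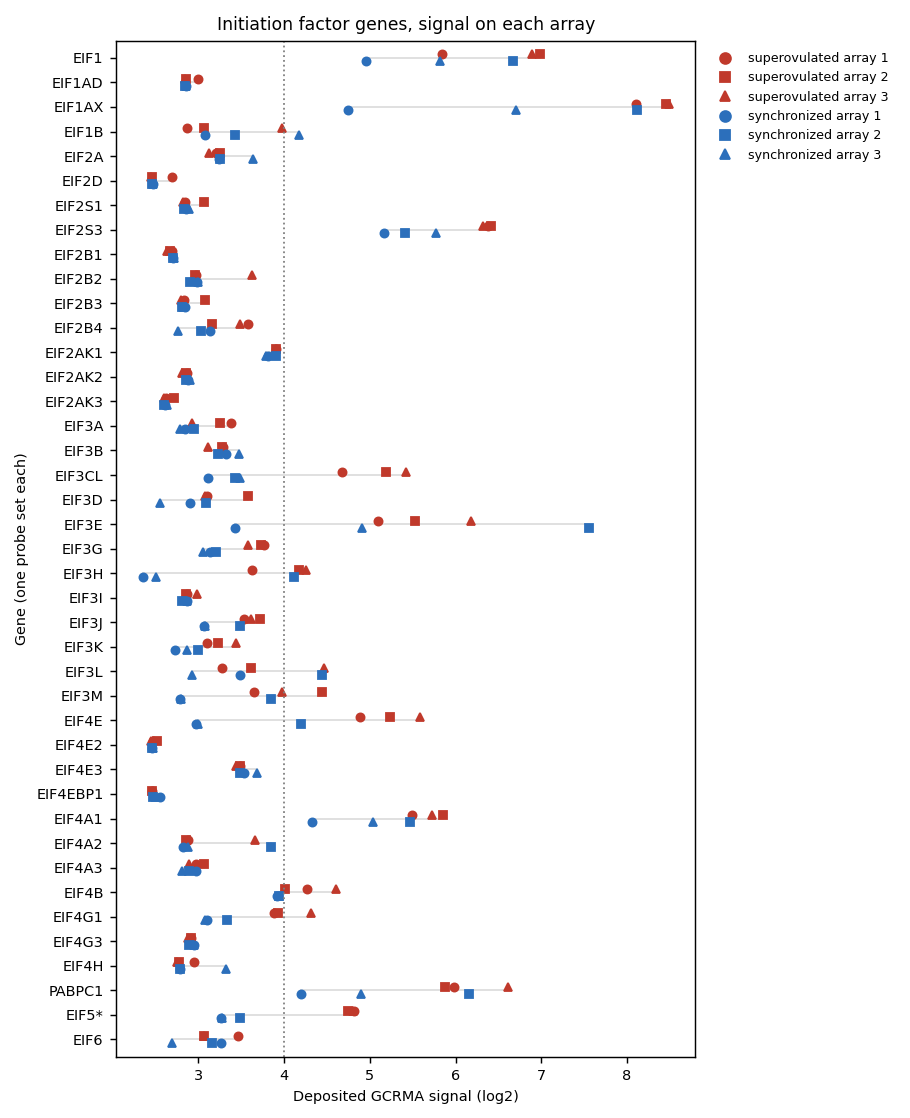
Signal of the 41 initiation factor genes on each array (x axis, deposited log2 signal; 1 row per gene, grouped by complex from eIF1 at the top to eIF5 and eIF6 at the bottom; red, superovulated; blue, synchronized; symbol shape, array number; dotted line, log2 4; asterisk, adjusted p below 0.05 in limma). Most rows lie left of the dotted line, EIF5, EIF3CL and EIF2S3 show red and blue points apart, and synchronized array 2 is the rightmost point in EIF3E at 7.56.

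Among the factors that prepare the 40S subunit, EIF1AX, which fills the decoding site before the start codon is found, read 8.10, 8.45 and 8.49 on the superovulated arrays, against 4.75, 8.12 and 6.70 on the synchronized arrays. Synchronized array 2 reached the superovulated range, and the difference of 1.82 did not pass. EIF1, the guard of start codon choice, read 5.84, 6.99 and 6.89 in superovulated and 4.95, 6.67 and 5.82 in synchronized blastocysts. Its groups overlapped (difference 0.76, turning to -0.10 after a second quantile normalization). EIF1B, a near copy of EIF1, was the most negative initiation factor at -0.25 (superovulated 2.87, 3.07 and 3.98, synchronized 3.08, 3.43 and 4.17), within its spread.

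Of the eIF2 subunits, EIF2S3, the GTP-binding gamma subunit, read 6.38, 6.41 and 6.32 on the superovulated arrays, against 5.16, 5.41 and 5.77 on the synchronized arrays. The groups were 0.55 apart, and the difference of 0.92 (0.51 to 1.34) did not pass (adjusted p = 0.135 in limma). The alpha subunit gene EIF2S1, whose phosphorylation shuts down initiation under stress, stayed at background (superovulated 2.82 to 3.07, synchronized 2.83 to 2.89; difference 0.05, or -0.57 after centring). EIF2B4, of the exchange factor that reloads eIF2 with GTP, differed by 0.43 (-0.19 after centring) and EIF2A by -0.18, both below log2 4. The 3 measured kinases of eIF2 were at background in both groups.

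In the eIF3 complex 11 of 12 subunit genes had a difference above 0 as deposited (median 0.40), against 26.9% of all probe sets and 71.5% of bright ones. After centring on bright probe sets 9 of 12 were below 0 (median -0.22), where 4.46% of all probe sets and 48.6% of bright ones were above 0. Centring lowers every difference by the same amount, so small differences turn sign by the scaling alone. Only 2 of the 12 genes had a mean above log2 4. None of the 12 passed under either scaling. EIF3CL, named in humans for a near-identical copy of the core subunit gene EIF3C, read 4.68, 5.19 and 5.42 in the superovulated group, against 3.11, 3.43 and 3.48 in the synchronized group. The groups stood 1.20 apart, and the difference of 1.76 had an adjusted p of 0.0610 in limma; whether its probes also read such a copy was not tested. EIF3G, which reaches the mRNA entry side, read 3.77, 3.73 and 3.58 in superovulated and 3.13, 3.20 and 3.05 in synchronized blastocysts (difference 0.57, adjusted p = 0.0518 in limma). Both groups were tight but under log2 4. EIF3J and EIF3K differed by 0.41 and 0.39 without overlap, EIF3A by 0.33 and EIF3M by 0.88 with overlap. After centring, EIF3A, EIF3D, EIF3E, EIF3G, EIF3I, EIF3J, EIF3K and EIF3L turned to values between -0.57 and -0.055, while EIF3CL (1.14), EIF3H (0.41) and EIF3M (0.26) stayed above 0. EIF3B disagreed between its probe sets, at -0.11 and 0.69, the second without overlap (superovulated 3.53, 3.49 and 3.65, synchronized 2.74, 3.13 and 2.73). EIF3E had another order than most 40S genes: the superovulated arrays read 5.10, 5.53 and 6.18, synchronized array 2 was the highest of all arrays at 7.56, and synchronized arrays 1 and 3 read 3.43 and 4.91. EIF3L (superovulated 3.28, 3.61 and 4.47, synchronized 3.49, 4.44 and 2.93) and EIF3H (superovulated 3.63, 4.17 and 4.25, synchronized 2.35, 4.11 and 2.51) also had synchronized array 2 inside the superovulated range.

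At the cap, EIF4E, the cap-binding protein and the point of control by mTOR, read 4.89, 5.24 and 5.58 on the superovulated arrays, against 2.97, 4.20 and 2.99 on the synchronized arrays. Synchronized arrays 1 and 3 were at background, and the difference of 1.85 (0.80 to 2.90) did not pass (adjusted p = 0.256 in limma). The scaffold gene EIF4G1 read 3.88, 3.93 and 4.31 in superovulated and 3.10, 3.33 and 3.08 in synchronized blastocysts (difference 0.87, adjusted p = 0.116 in limma). The helicase gene EIF4A1 read 5.49, 5.85 and 5.72 in superovulated and 4.32, 5.47 and 5.04 in synchronized blastocysts. In EIF4E and EIF4G1 the groups were clearly apart, in EIF4A1 by no more than 0.02. EIF4B, a helper of the helicase, differed by 0.36 (-0.26 after centring), EIF4H by -0.14 and EIF4A2 by -0.05. EIF4EBP1, the inhibitor that mTOR removes from EIF4E, was at background on all arrays (2.46 to 2.55).

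PABPC1, which binds the poly(A) tail and joins it to EIF4G1 at the cap, read 5.98, 5.88 and 6.61 on the superovulated arrays, against 4.20, 6.16 and 4.90 on the synchronized arrays. A second probe set with signal read 4.91, 5.39 and 5.09 in superovulated and 3.14, 4.85 and 4.0 in synchronized blastocysts. The differences were 1.07 and 1.13 and did not pass, and on both probe sets synchronized array 2 was the highest of its group. The other 2 probe sets were at background with differences of -0.10 and -0.16. In the 10 initiation factor genes with a mean above log2 4, synchronized array 1 was the lowest array in 10, against 52.9% of all probe sets with such a mean. Of these 10, 4 had a synchronized mean at or under log2 4 and entered through the superovulated arrays, so the count is a description only. Over all 41 initiation factor genes that array was the lowest in 15, against 6.86% of all probe sets.

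**Figure D4:**
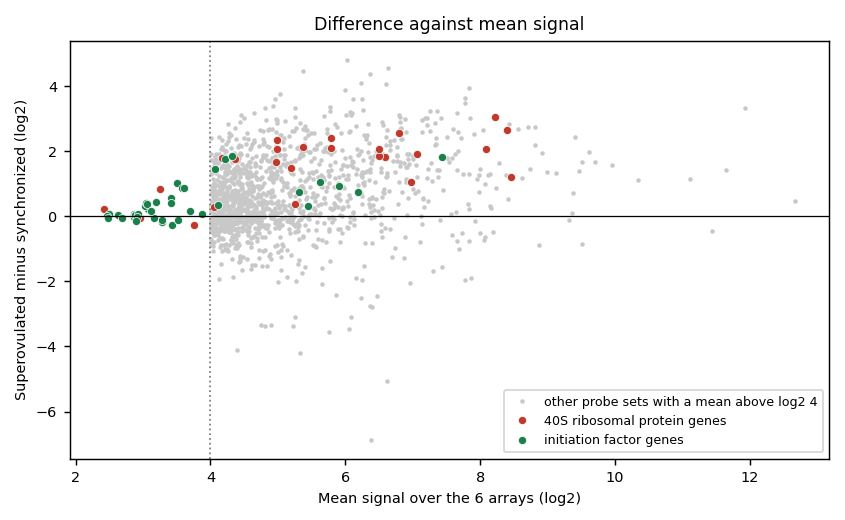
Difference between the groups (y axis, superovulated minus synchronized, log2) against the mean signal over the 6 arrays (x axis, log2) for the genes for 40S proteins (red), the initiation factor genes (green) and, in grey, the other probe sets with a mean above log2 4 (dotted line). The red points right of the line lie between 0.27 and 3.06, within the range of the grey points, and the green points left of the line lie between -0.25 and 1.03.

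The 60S ribosomal protein genes encode the other subunit and are the class most like the 40S genes. Of 41 such genes 38 had a difference above 0, against 26.9% of all probe sets and 71.5% of those with a mean above log2 4. In 34 the groups did not overlap and the superovulated group was higher (5.42% and 42.5%), and 6 passed as higher (0.695% and 7.82%). Of the 41 genes 35 had a mean above log2 4, and the median of the 41 was 1.64. Against synchronized array 2 their median was 0.99, where that of the 40S genes was 1.30. The difference between the classes was not tested. The initiation factors as a class had the lower median, 0.17, but also the larger share of genes at background.

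Genes around the pathway were read from 4 lists. Of 31 measured assembly factors of the 40S subunit 4 passed as higher and 0 as lower, where 0.695% of all probe sets passed as higher and 0.0208% as lower. The list leaned no single way: 16 genes had a difference above 0 and 15 below it, with a median of 0.07. In 10 the superovulated arrays all lay higher, against 5.42% of all probe sets and 42.5% of those with a mean above log2 4. In 5 they all lay lower, against 7.89% of all probe sets. Among those 5, NOB1, the nuclease that makes the last cut of the 18S rRNA, had the most negative value: it read 4.73, 4.13 and 4.49 on the superovulated arrays, against 5.01, 5.35 and 6.29 on the synchronized arrays (difference -1.10, adjusted p = 0.636 in limma). Centring on bright probe sets lowers every difference by the same amount. After centring the NOB1 difference was thus more negative than -1.10, and its adjusted p was 1.8e-04 in limma. Under that scaling 6813 probe sets stood at an unadjusted p below 0.05 in limma, against 1596 as deposited. The part of the larger difference in this NOB1 p-value was not tested. WDR75 and WDR43, of the complex that starts processing of the rRNA precursor, rose by 1.70 and 2.22. WDR75 read 4.62, 4.87 and 4.41 on the superovulated arrays, against 2.92, 2.93 and 2.96 on the synchronized arrays, and WDR43 read 5.88, 5.93 and 5.10 in superovulated and 3.26, 3.47 and 3.51 in synchronized blastocysts. NOP56, of the particles that methylate rRNA, read 5.88, 6.55 and 6.38 in the superovulated group, against 4.35, 4.29 and 4.53 in the synchronized group. RIOK2, a kinase of late 40S maturation, rose by 0.64. In these 4 genes the synchronized arrays lay close together (SD 0.02 to 0.13), and adjusted p lay between 0.0195 and 0.0466 in limma. With 1 array left out, WDR75 passed without superovulated array 2 or 3 and missed the threshold without any of the others (adjusted p up to 0.0860 in limma), NOP56 passed without superovulated array 1 alone (otherwise up to 0.141), WDR43 without superovulated array 3 alone (otherwise up to 0.179), and RIOK2 in 0 of the 6 tests (0.0641 to 0.151). None of the 4 passed after a second quantile normalization (adjusted p = 0.0881 to 0.559 in limma), and after centring WDR75 (0.0762) and RIOK2 (0.968, difference 0.015) did not pass.

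Among 13 initiation helpers outside the member rule 0 passed in limma, against 0.716% of all probe sets. At an unadjusted p below 0.05 stood 1 of the 13, against 6.65% of all probe sets, and the median was 0.14. RACK1, a 40S protein with another name, read 6.96, 7.72 and 7.69 on the superovulated arrays, against 3.80, 7.16 and 5.38 on the synchronized arrays, the array order of most 40S genes but with overlap. Of 22 genes of the mTOR, AKT and S6 kinase pathway 0 passed (2 at an unadjusted p below 0.05), with a median of -0.03 and 3 genes above log2 4. Of 10 genes that respond to eIF2 phosphorylation 0 passed (0 at an unadjusted p below 0.05), with a median of -0.02 and 0 genes above log2 4. With those shares of all probe sets, 0 calls in lists of this size do not show that the genes were unchanged.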

How the data were processed

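RNA came from the PicoPure kit and was labelled with biotin in a second in vitro transcription, per the labels' protocols. The authors deposited log2 expression values for the Affymetrix GeneChip Bovine Genome Array, made with GCRMA per the submitters' processing notes (no version given). Whether the 6 arrays went through it jointly was not given in the sources used here. GCRMA compresses values near background. The values were used as deposited, leaving out 112 control probe sets.

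Gene names came from GEO's platform annotation. Of 24016 probe sets 13292 had 1 symbol, and 2 probe sets with several symbols that include a member were left out. All 66 members matched the ARS-UCD2.0 gene table by gene identifier. No coordinates or sequences were used.

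Group differences were fitted in limma 3.58.1 under R 4.3.3 (lmFit, then eBayes; no covariates; two-sided, Benjamini-Hochberg over all probe sets). The number of arrays, 3 per group, limits the precision. The procedure was tested on simulated data.

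The members, lists and tests were chosen with earlier results of these data known. Named were members that passed, 14 genes of each class with the smallest p, the 4 most negative of each class, 14 fixed genes, genes with disagreeing probe sets, and up to 3 genes per pathway list. EIF3E, EIF3H, EIF3L, EIF4A2, RPS14, RPS2, RPS26, RPS27, RPS3, WDR43 and NOB1 were added after their values were seen. The places of proteins on the subunit are background knowledge. Alternatives covered scaling, a filter on dim probe sets, the variance model, array weights, probe set choice, the replicate block and arrays left out.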

Additional observations from a re-analysis of the deposited data

How the results depend on the processing

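The median difference of the 40S genes stayed above 0 under every alternative, from 1.15 to 2.34, whereas the count of 40S genes that passed, 2, ran from 0 to 15. The counts that passed are given as all probe sets, 40S genes and initiation factor genes, and were 172, 2 and 1. They became 28, 1 and 0 after a second quantile normalization, 647, 15 and 2 after centring on probe sets with a mean above log2 4 (281 of the 647 higher, against 167 of 172), 441, 15 and 4 when only those were tested, 50, 0 and 1 with an intensity trend, 515, 12 and 6 with array weights, and 190, 3 and 2 with the mean of all probe sets of a gene. Without superovulated array 3 and synchronized array 2 they were 1, 0 and 0. Leaving out 1 array gave 26 to 137, 0 to 2 and 0 to 1. Against synchronized array 2 alone, chosen after the data were seen and with that array assumed to vary like the superovulated ones, they were 802, 2 and 2, with 141 of the 802 higher. Same-numbered arrays deviated together in 1 of 3 pairs (r of 0.60, -0.54 and -0.44 across bright probe sets). The labels do not say whether the numbers pair arrays, and these correlations cannot settle it. With the replicate block 0, 0 and 0 passed (1382 probe sets at an unadjusted p below 0.05 in limma). The median of the initiation factors was 0.17, turned to -0.46 after centring, and was 0.997 with only bright probe sets tested, where 10 of 41 genes remained in the test. Causes were not tested.

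The genes described with values whose difference turned sign had not passed. After a second quantile normalization they were EIF1 (-0.10), EIF3E (-0.054), FAU (-0.048), RPS2 (-0.30) and RPS9 (-0.024). After centring, which lowers every difference by the same amount, they were EIF2B4 (-0.19), EIF2S1 (-0.57), EIF3A (-0.29), EIF3E (-0.32), EIF3G (-0.055), EIF3J (-0.21), EIF3K (-0.23), EIF3L (-0.46), EIF4B (-0.26), EIF6 (-0.46), RPS2 (-0.25), RPS28 (-0.41) and RPS9 (-0.35). Of the 14 genes listed without values, EIF2AK1 turned after a second quantile normalization (-0.094), and after centring the 10 that had been above 0 turned and all 14 were below it. EIF6 stood at -0.017 with array weights, and EIF3B at 0.29 and RPS19 at 0.013 with the mean of probe sets. Against synchronized array 2 alone EIF1 (-0.10), EIF3E (-1.96), EIF3H (-0.093), EIF3L (-0.65), EIF4H (0.043), PABPC1 (-0.0033), RPS14 (-0.11) and RPS27L (0.06) turned. Without superovulated array 3 and synchronized array 2, EIF4A2 stood at 0.02 and RPS28 at -0.005. With 1 array left out the ranges that crossed 0 were EIF1B -0.59 to 0.052, EIF2S1 -0.027 to 0.10, EIF3E -0.63 to 1.43, EIF3L -0.18 to 0.58, EIF4A2 -0.31 to 0.28, EIF4H -0.23 to 0.038, EIF6 -0.013 to 0.27 and RPS28 -0.0017 to 0.33. Signal near background limits what can be said of the 14 genes listed without values.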
